A study of Rattus norvegicus with 9 samples.

Results

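The genes described here encode plasma proteins of complement and coagulation: complement components and their regulators, clotting factors, anticoagulants, and proteins of fibrinolysis, the process that dissolves clots. They were chosen by name from a list of 46 genes, and every probe set annotated with 1 of these symbols alone was taken. Such probe sets were found for 31 genes, 40 probe sets in all, out of 15923 probe sets and 10411 genes with 1 symbol on the array. Complement supplied 16 genes of 24 listed, clotting factors 7 of 13, anticoagulants 4 of 5 and fibrinolysis 4 of 4. Another 5 listed genes, C2, C4a, C4b, Cfb and Kng1, appeared only on 3 probe sets that name several genes and were not read. No probe set here carried the name of the remaining 10, C5, C6, C8a, C8g, F7, F9, F11, F12, F13b and Serpinc1. All 40 probe sets passed the filter on low signal.

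Total RNA of whole rat liver was measured on 9 one-colour arrays, 3 in each of 3 groups. Sham-Sham is the control, Sham-CLP carries the name of a sham procedure and CLP, and Burn-CLP that of a burn and CLP. CLP is not spelled out in the labels, and in rodent studies the letters usually mean cecal ligation and puncture, a model of abdominal sepsis. Strain, age, burn size and sampling time are not given by the labels. Nor is it stated that the 3 arrays of a group are 3 animals. The p-values therefore cover the spread among these arrays alone, and that spread could be technical.

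Hepatocytes make most complement and clotting proteins and secrete them into plasma. Complement is started by C1 on antibody, by mannose-binding lectins on microbial sugars, or by C3 itself, and ends in a pore of terminal components, while regulators in plasma hold it in check. Clotting factors are proteases and cofactors that act in a chain to make thrombin, which turns fibrinogen into fibrin, and plasmin dissolves the fibrin again. Several of these genes, fibrinogen and C3 among them, are textbook acute phase genes of the liver, which respond to interleukin 6 and interleukin 1.

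Promoters are shown for 4 genes: Mbl2 and F5, which had the member probe sets lying farthest below and farthest above Sham-Sham in Burn-CLP, and C4bpb and Fgb, a complement regulator and a fibrinogen chain. Each run of 300 bases covers 250 bases before and 50 bases after the start of the gene in RefSeq on build GRCr8, written 5′ to 3′ on the gene's strand. Capitals mark matches, on either strand, to 4 motifs: TTCNNGGAA, bound by STAT3, CTGGGAA, the core of the acute phase element, GTTAAT, part of the HNF1 site, and TTGCNNAA, a form of the C/EBP site. TTCNNGGAA and CTGGGAA can overlap and do so in C4bpb. The Mbl2 promoter is at chr1:237430793-237431092 on the plus strand, that of F5 at chr13:79046407-79046706 on the plus strand, that of C4bpb at chr13:44683732-44684031 on the minus strand and that of Fgb at chr2:170700826-170701125 on the minus strand.
Mbl2: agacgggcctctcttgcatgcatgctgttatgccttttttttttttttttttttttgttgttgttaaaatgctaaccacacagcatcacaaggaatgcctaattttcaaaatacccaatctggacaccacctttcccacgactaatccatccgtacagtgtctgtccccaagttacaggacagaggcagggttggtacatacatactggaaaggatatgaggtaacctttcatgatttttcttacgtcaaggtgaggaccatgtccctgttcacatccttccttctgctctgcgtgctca
F5: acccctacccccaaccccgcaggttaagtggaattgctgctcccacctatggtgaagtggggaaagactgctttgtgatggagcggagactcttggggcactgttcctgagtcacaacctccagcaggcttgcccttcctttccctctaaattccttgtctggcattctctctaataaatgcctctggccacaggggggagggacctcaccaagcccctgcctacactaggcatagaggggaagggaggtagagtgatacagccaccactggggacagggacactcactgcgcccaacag
C4bpb: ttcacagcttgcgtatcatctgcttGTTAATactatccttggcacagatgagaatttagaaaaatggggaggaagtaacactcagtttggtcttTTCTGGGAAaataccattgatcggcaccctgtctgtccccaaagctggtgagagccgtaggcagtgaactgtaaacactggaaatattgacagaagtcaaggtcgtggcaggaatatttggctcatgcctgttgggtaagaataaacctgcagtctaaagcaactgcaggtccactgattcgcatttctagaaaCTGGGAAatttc
Fgb: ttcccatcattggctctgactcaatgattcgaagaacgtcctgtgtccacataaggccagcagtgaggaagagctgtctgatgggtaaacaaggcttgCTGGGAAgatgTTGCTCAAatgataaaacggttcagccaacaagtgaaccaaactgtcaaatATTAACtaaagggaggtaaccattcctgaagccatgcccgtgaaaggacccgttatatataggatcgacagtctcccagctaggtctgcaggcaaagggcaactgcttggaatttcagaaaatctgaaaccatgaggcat
None of the 4 motifs stands in the Mbl2 or F5 window. In C4bpb the TTCNNGGAA match starts 156 bases before the start and the overlapping CTGGGAA 154 bases before it, while GTTAAT lies 225 bases before and a second CTGGGAA 39 bases after it. The Fgb window holds CTGGGAA, TTGCNNAA and GTTAAT at 152, 141 and 90 bases before the start. RefSeq promoters were at hand for 23 of the 31 genes, 25 windows in all, since Fga and Tfpi have 2 each and those of Fga overlap. TTCNNGGAA occurs in 4 of the 25 windows (16%) and in 4.94% of all 33469 promoters in the table, and CTGGGAA in 8 (32%) against 11.3%. GTTAAT occurs in 9 (36%) against 7.45% and TTGCNNAA in 8 (32%) against 10.6%. These matches describe letters in a window and do not show that a factor binds.

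Signals are quantile-normalized intensities, differences are log2 with a standard error (SE), and a probe set was called at an adjusted p under 0.05 over the 13535 probe sets tested. Normalization was used because deposited array medians ran from 205 to 268.1, lowest in Sham-CLP (205 to 212.4). Sham-Sham 1 had the lowest mean correlation with the other arrays, 0.890 against 0.922 to 0.949. It also held 3 of the 4 member signals that lay at the signal floor of 64.3, for Masp1, Clu and Tfpi, and Sham-Sham 2 held the other, for Tfpi. Albumin (Alb), a defining hepatocyte product, read 32863 to 35699 on all 9 arrays. Quantile normalization gives a probe set the value of its rank, so this even level does not show that hepatocyte content was alike. In whole liver, fewer cells of a type and less RNA per cell cannot be told apart. The number of arrays limits the precision: for any 1 gene, 3 arrays against 3 allow no two-sided p below 0.1 in an exact permutation test.

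After normalization most differences between groups were small. Burn-CLP against Sham-Sham gave 1 called probe set of 40, the brighter of 2 for Mbl2, which fell, where 0.746% of all probe sets were called and 0.421% were called lower. Sham-CLP against Sham-Sham gave 0 called members, where 0.0591% of all were called, and Burn-CLP against Sham-CLP gave 0, where 0.0148% were. The F test over the 3 groups called 0 members and 0.148% of all probe sets. At an unadjusted p under 0.05 there were 2 members in Sham-CLP against Sham-Sham (11.7% of all probe sets), 3 in Burn-CLP against Sham-Sham (19.9%) and 2 in Burn-CLP against Sham-CLP (9.09%). The 3 comparisons share arrays, so their counts are not independent.

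Between Burn-CLP and Sham-Sham, 35 of 40 members (87.5%) lay within 0.5 log2 of 0, against 72.1% of all probe sets, and for 32 (80%) the 95% interval lay within 1 log2, a change of 2-fold. Such intervals held for 61.5% of all probe sets. For Sham-CLP against Sham-Sham, 37 members (92.5%) lay within 0.5 log2, against 79.9% of all, and 36 intervals (90%) within 1 log2, against 66.9%. The members also varied less between arrays of a group, with a median residual SD of 0.18 log2 against 0.31 for all probe sets. These shares were not particular to the members. Of 7 hepatocyte markers 6 (85.7%) lay within 0.5 log2 in both comparisons, and 85.7% of their intervals within 1 log2. Probe sets of like signal were not compared. All these shares are on the quantile-normalized scale. With the deposited scaling most members still lay within 0.5 log2 in Sham-CLP against Sham-Sham. Some exceeded it, such as C4bpb (0.60) and C1s (0.58).

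**Figure D1:**
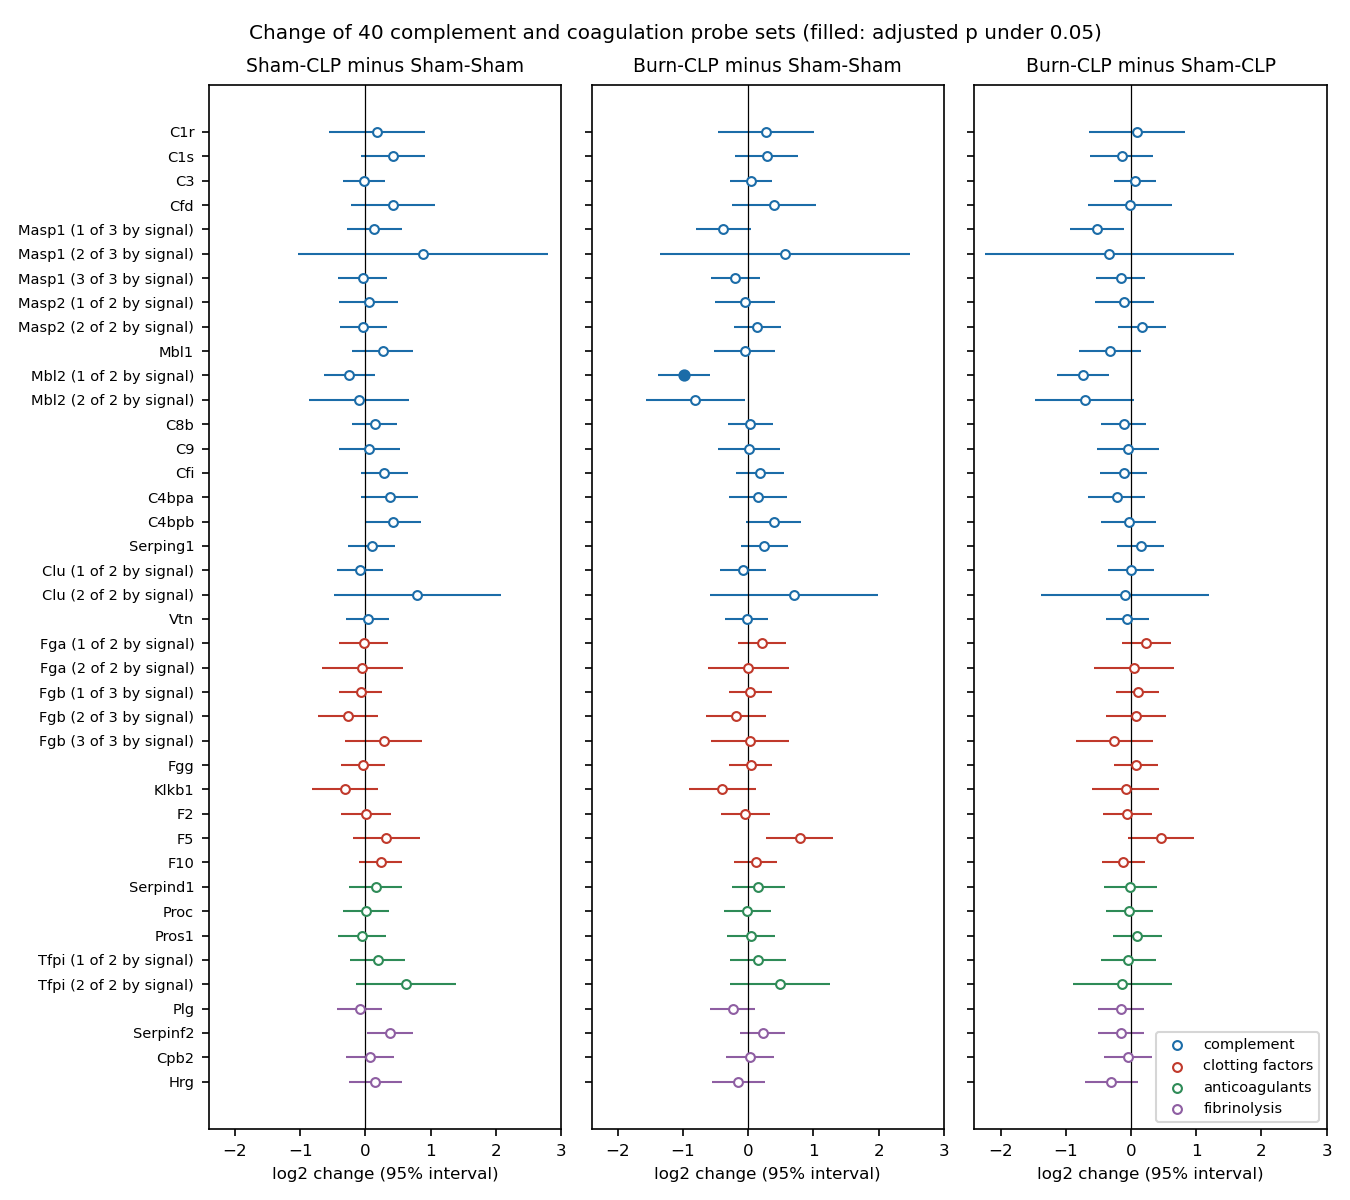
Log2 difference of each of the 40 member probe sets (rows, grouped by class) with its 95% interval, in 3 panels for the 3 comparisons; filled points have an adjusted p under 0.05. Most points sit within 0.5 of 0, and the single filled point is the brighter Mbl2 probe set in Burn-CLP against Sham-Sham, at -0.98.

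Among the proteins that start complement, Mbl2, the mannose-binding lectin C that recognises microbial sugars, stood lowest in Burn-CLP. Its brighter probe set (1379240_at) read 7292, 7308 and 7109 in Sham-Sham, 5296, 5972 and 7206 in Sham-CLP, and 4179, 3254 and 3619 in Burn-CLP. The Burn-CLP arrays lay below all 6 others, and the Sham-CLP arrays spread from the Sham-Sham level downward. Group means were 7236 ± 110.4 (SD, n = 3), 6158 ± 968 (SD, n = 3) and 3684 ± 466 (SD, n = 3). From Sham-Sham to Burn-CLP the signal fell 1.97-fold, a log2 difference of -0.98 ± 0.18 (SE) with a 95% interval from -1.38 to -0.58 and an adjusted p of 0.04409. Sham-CLP differed from Sham-Sham by -0.24 ± 0.18 (adjusted p = 0.5946). Burn-CLP differed from Sham-CLP by -0.74 ± 0.18, with an interval from -1.13 to -0.34 and an adjusted p of 0.3321, so that this step was not called although the arrays did not overlap.

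The Mbl2 call lay close to the threshold. Of 17 other settings 4 kept it, and the adjusted p ran from 0.009749 to 0.1626 while the log2 difference stayed between -1.08 and -0.89. It was lost when any array other than Sham-Sham 3 was left out, with an adjusted p from 0.05324 (without Sham-CLP 3) to 0.1626 (without Burn-CLP 2), and with the deposited scaling (0.05634). The dimmer Mbl2 probe set (1387528_at) read 1426, 2084 and 2765 in Sham-Sham, 1483, 1950 and 2319 in Sham-CLP, and 1283, 731.3 and 1632 in Burn-CLP. Its Burn-CLP and Sham-Sham arrays overlapped, and the difference of -0.81 ± 0.34 did not pass (adjusted p = 0.234). Both probe sets read the same gene and are not replicates of each other.

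**Figure D2:**
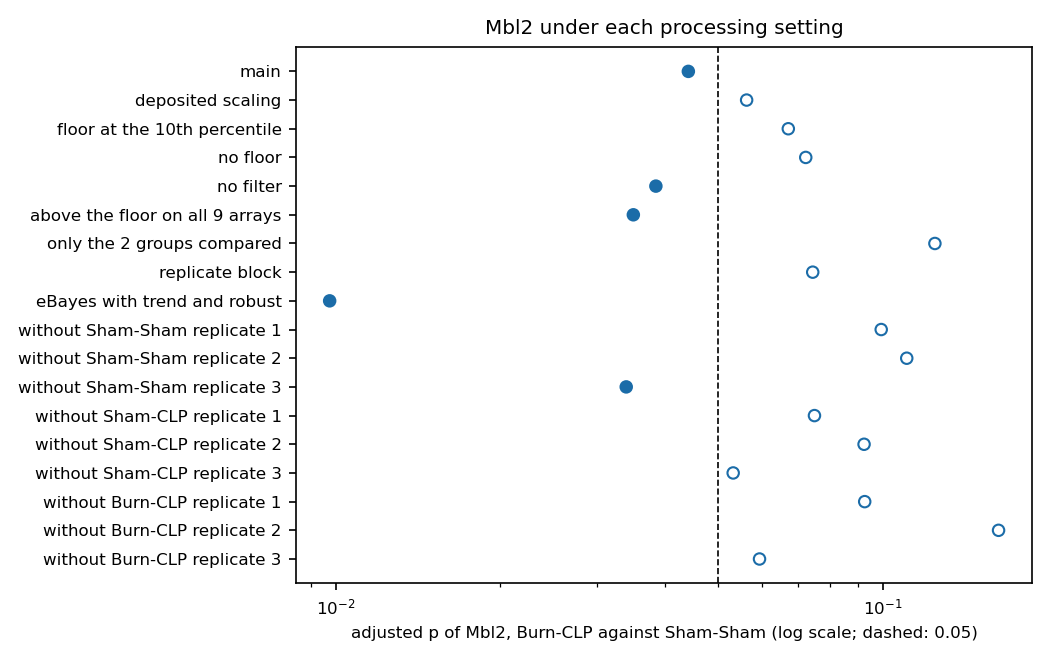
Adjusted p of the brighter Mbl2 probe set in Burn-CLP against Sham-Sham (log axis) under the reported setting and 17 others; the dashed line marks 0.05. Points run from 0.009749 to 0.1626, and 4 of the 17 others lie under the line.

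The second mannose-binding lectin of the rat, Mbl1, gave another pattern. It read 4459, 3538 and 4556 in Sham-Sham, 5057, 4805 and 5163 in Sham-CLP, and 3335, 3619 and 5315 in Burn-CLP. All Sham-CLP arrays lay above Sham-Sham, and Burn-CLP spanned both. The differences were 0.27 ± 0.21 in Sham-CLP and -0.05 ± 0.21 in Burn-CLP against Sham-Sham, neither of which passed (adjusted p = 0.6193 and 0.9082). Whether Mbl1 and Mbl2 differed in their response was not tested.

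Masp1 encodes a protease that travels with the lectins. Its brightest probe set read 975.8, 1040 and 1095 in Sham-Sham, 952.4, 1109 and 1403 in Sham-CLP, and 752.1, 892.5 and 750.6 in Burn-CLP. Burn-CLP arrays lay below all others, by -0.38 ± 0.19 against Sham-Sham (adjusted p = 0.2869) and -0.52 ± 0.19 against Sham-CLP (adjusted p = 0.4638). The dimmest Masp1 probe set, at -0.20 in Burn-CLP against Sham-Sham, overlapped. The middle one gave 0.56 with 1 Sham-Sham array at the floor, so the 3 probe sets did not share a direction. Masp2, the lectin pathway protease that cleaves C4 and C2, stayed between -0.05 and 0.14 against Sham-Sham over its 2 probe sets.

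C1s and C1r are the proteases of the first component, and they neighbour each other on chromosome 4. C1s read 7280, 7109 and 6318 in Sham-Sham, 9377, 8718 and 9707 in Sham-CLP, and 6204, 8567 and 11113 in Burn-CLP. Sham-CLP lay above Sham-Sham throughout, by 0.43 ± 0.22 (adjusted p = 0.4681), and Burn-CLP ranged from below to above both. C1r differed by 0.18 and 0.27 from Sham-Sham in Sham-CLP and Burn-CLP, with groups that overlapped. Cfd, the alternative pathway protease that is mainly a fat cell product, was dim, at 140.2 to 292.5, and differed by 0.42 and 0.40 with overlap. The adipocyte marker Plin1 differed by -0.40 and -0.14, also without passing.

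C3, on which all complement pathways meet, was among the 5 brightest probe sets of every array. Its normalized signal was 32863 on 6 of 9 arrays, because quantile normalization gives a probe set the value of its rank, and its differences were -0.02 ± 0.14, 0.05 ± 0.14 and 0.07 ± 0.14. The deposited values were 30883, 33550 and 31753 in Sham-Sham, 38621, 37093 and 35633 in Sham-CLP, and 27742, 29330 and 30393 in Burn-CLP. On that scale the 3 groups did not overlap, with Sham-CLP highest and Burn-CLP lowest. The deposited differences were 0.21 in Sham-CLP and -0.14 in Burn-CLP against Sham-Sham, opposite in sign to the normalized ones, and -0.35 in Burn-CLP against Sham-CLP. None of these passed on either scale.

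Of the terminal pathway only C8b and C9 were read, of 6 genes listed. C9, the pore-forming component, read 16161, 15976 and 19184 in Sham-Sham, 17245, 16070 and 20316 in Sham-CLP, and 13003, 19319 and 20316 in Burn-CLP. After normalization the C9 groups overlapped throughout. The intervals ran from -0.41 to 0.53 for Sham-CLP and from -0.46 to 0.49 for Burn-CLP against Sham-Sham. C8b, a subunit of the component before it, read 7759, 7034 and 7206 in Sham-Sham, 7398, 8310 and 8613 in Sham-CLP, and 7109, 8047 and 7332 in Burn-CLP. Its normalized groups overlapped too, with differences of 0.14 and 0.03. With the deposited scaling both genes separated Sham-CLP from Sham-Sham, as did 18.9% of all probe sets. C9 read 18015 to 21531 against 14015 to 17764 (0.35, adjusted p = 0.4815 in the limma fit). C8b read 8146 to 8941 against 6587 to 7202 (0.33, adjusted p = 0.3638).

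The regulators of complement leaned upward in Sham-CLP without a call. Of 7 probe sets 6 were higher than in Sham-Sham, with a median of 0.29 against 0.00 for all probe sets. C4bpb, the beta chain of C4b-binding protein, read 4664, 5233 and 5574 in Sham-Sham, 7206, 7230 and 6385 in Sham-CLP, and 5444, 8096 and 6969 in Burn-CLP. Every Sham-CLP array lay above Sham-Sham, by 0.43 ± 0.19 (interval 0.01 to 0.85, adjusted p = 0.4193). Burn-CLP stood 0.39 ± 0.19 above Sham-Sham with 1 overlapping array (adjusted p = 0.2786). The alpha chain, C4bpa, read 12068, 12560 and 11699 in Sham-Sham, 14701, 15275 and 17066 in Sham-CLP, and 10201, 15508 and 15350 in Burn-CLP. Sham-CLP again lay above Sham-Sham, by 0.37 ± 0.20, while Burn-CLP 1 was the lowest array of all.

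Cfi, the protease that inactivates C3b and C4b, read 15018, 12316 and 14331 in Sham-Sham and 17576, 17066 and 16243 in Sham-CLP. These groups did not overlap (0.29 ± 0.16, adjusted p = 0.501), and Burn-CLP, at 0.18, overlapped Sham-Sham. Serping1, the C1 inhibitor, which also restrains plasma kallikrein, read 12178, 13248 and 10711 in Sham-Sham and 13637, 14436 and 14701 in Burn-CLP. Burn-CLP lay above Sham-Sham on all arrays, by 0.25 ± 0.16 (adjusted p = 0.4105). Vtn, vitronectin, an inhibitor of the terminal complex, read 21045, 23085 and 21045 in Sham-Sham, 22433, 22213 and 22041 in Sham-CLP, and 21509, 19979 and 22604 in Burn-CLP. Vtn differed by 0.03 in Sham-CLP and -0.02 in Burn-CLP, and by 0.31 and 0.02 with the deposited scaling. The brighter probe set of Clu, clusterin, gave -0.08 in both comparisons, and the dimmer had Sham-Sham 1 at the floor.

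**Figure D3:**
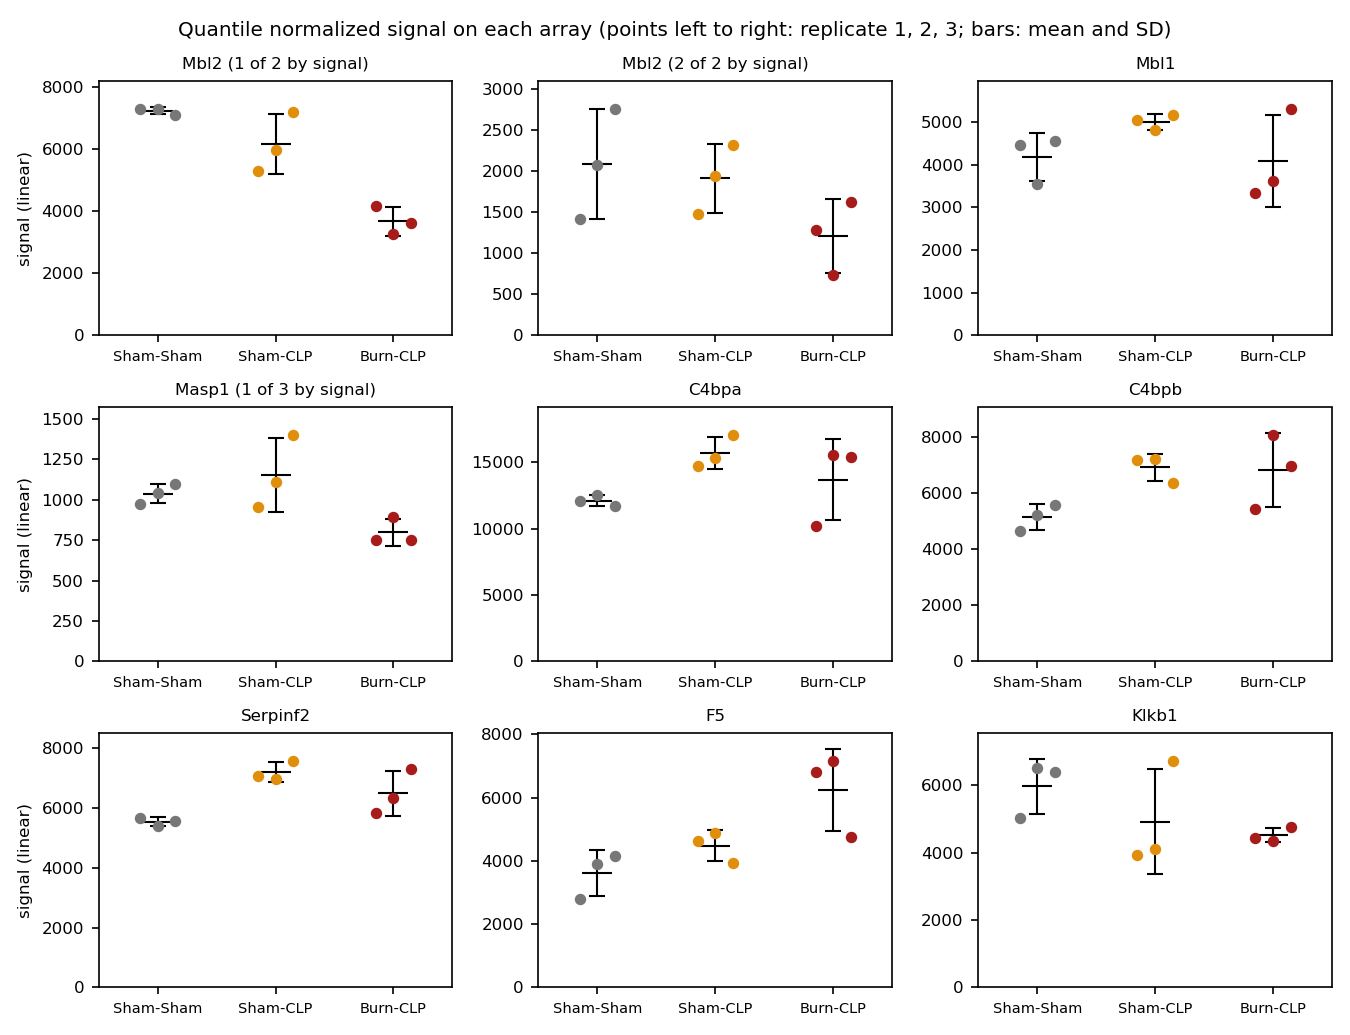
Normalized signal (linear axis) of 9 member probe sets on each of the 9 arrays, with the mean and SD of each group. Burn-CLP lies below both other groups for the brighter Mbl2 and for Masp1, Sham-CLP lies above Sham-Sham for C4bpa, C4bpb and Serpinf2, and Burn-CLP lies above both for F5 except that its lowest array, 4762, falls within Sham-CLP.

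The 3 fibrinogen chains are encoded by the neighbouring genes Fgg, Fga and Fgb on chromosome 2. After quantile normalization their brightest probe sets were near the Sham-Sham level in both injured groups, but not with the deposited scaling. The brightest Fgb probe set read 24735, 25275 and 26343 in Sham-Sham, 23816, 23085 and 25906 in Sham-CLP, and 25006, 27137 and 26090 in Burn-CLP. Arrays overlapped, and the intervals were -0.40 to 0.26 for Sham-CLP and -0.29 to 0.36 for Burn-CLP. Fgg read 27488, 27137 and 28179 in Sham-Sham, 26930, 26090 and 27780 in Sham-CLP, and 26548, 31148 and 27488 in Burn-CLP. Its groups overlapped as well, with intervals from -0.37 to 0.30 and from -0.30 to 0.37. The brighter Fga probe set read 18525, 16243 and 16742 in Sham-Sham, 16070, 15350 and 19460 in Sham-CLP, and 18686, 21871 and 19184 in Burn-CLP. Burn-CLP lay just above Sham-Sham without overlap, by 0.21 ± 0.17 (adjusted p = 0.494). The dimmer Fga probe set did not share this, with a difference of 0.0034 and overlapping arrays. With the deposited scaling the Sham-CLP differences of the brightest probe sets turned positive. Those of Fga, Fgb and Fgg went from -0.02, -0.07 and -0.04 to 0.25, 0.20 and 0.24. There every Sham-CLP array of these probe sets lay above every Sham-Sham array, though none was called. On that scale 18.9% of all probe sets had groups that did not overlap. Fga read 17338 to 20555 against 15214 to 16430, Fgb 26061 to 28328 against 22464 to 24567, and Fgg 29198 to 32080 against 25145 to 25812. The second Fgb probe set gave -0.27 and the third 0.28 in Sham-CLP, both uncalled. Both were far dimmer than the brightest, and the third, at 74.9 to 151.4, lay near the floor of 64.3. The second read 281.7, 197.7 and 304.4 in Sham-Sham, 196.8, 234.1 and 211.6 in Sham-CLP, and 250.7, 233.7 and 196.7 in Burn-CLP, with overlap throughout. With the deposited scaling its Sham-CLP arrays (179.7 to 211.9) lay just below Sham-Sham (213 to 324.9).

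F5, the cofactor that speeds thrombin formation by factor X, had the highest Burn-CLP difference of all 40 probe sets. It read 2785, 3915 and 4150 in Sham-Sham, 4634, 4872 and 3923 in Sham-CLP, and 6812, 7170 and 4762 in Burn-CLP. Each Burn-CLP array lay above each Sham-Sham array, and 1 overlapped Sham-CLP. Burn-CLP was 1.73-fold above Sham-Sham, 0.79 ± 0.23 on the log2 scale with an interval from 0.28 to 1.29, but the adjusted p of 0.1231 did not pass. Sham-CLP differed from Sham-Sham by 0.32 ± 0.23, and Burn-CLP from Sham-CLP by 0.46 ± 0.23 (adjusted p = 0.5763).

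F10, factor X itself, read 5629, 5546 and 5484 in Sham-Sham, 6299, 6748 and 6573 in Sham-CLP, and 6582, 5887 and 5629 in Burn-CLP. Sham-CLP did not overlap Sham-Sham, yet the difference was small, 0.24 ± 0.15 (adjusted p = 0.5494). In Burn-CLP it was 0.12, with the lowest Burn-CLP array level with the highest of Sham-Sham. F2, prothrombin, the precursor of thrombin, read 17810, 15918 and 15918 in Sham-Sham, 15430, 16243 and 18388 in Sham-CLP, and 14503, 15275 and 18525 in Burn-CLP. After normalization the F2 groups overlapped, with differences of 0.01 in Sham-CLP and -0.05 in Burn-CLP. Their intervals ran from -0.37 to 0.39 and from -0.42 to 0.33. With the deposited scaling the differences were 0.29 and 0.04, and Sham-CLP (18045 to 19227) lay above Sham-Sham (14987 to 15333). Klkb1, plasma prekallikrein, was the sole contact system gene read of 4 listed. It read 5016, 6504 and 6385 in Sham-Sham, 3932, 4113 and 6730 in Sham-CLP, and 4434, 4356 and 4755 in Burn-CLP. Burn-CLP lay below Sham-Sham without overlap, by -0.39 ± 0.23 (adjusted p = 0.3611), while Sham-CLP 3 stood above all other arrays.

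After normalization the groups overlapped for all 5 anticoagulant probe sets in the 3 comparisons. With the deposited scaling 2 of 5, Serpind1 and Proc, did not overlap between Sham-CLP and Sham-Sham, against 18.9% of all probe sets. Between Burn-CLP and Sham-CLP 1 of 5, Proc, did not, against 23.1% of all. Serpind1, heparin cofactor II, an inhibitor of thrombin, read 11911, 10780 and 12560 in Sham-Sham, 11853, 12452 and 15275 in Sham-CLP, and 15018, 11197 and 13144 in Burn-CLP. Its overlapping groups differed by 0.16 and 0.15 from Sham-Sham in Sham-CLP and Burn-CLP. Proc, protein C, which cuts activated factors V and VIII, gave 0.01 and -0.01, and its cofactor Pros1, protein S, -0.05 and 0.04. The interval for Proc in Burn-CLP ran from -0.37 to 0.34 and that for Pros1 from -0.32 to 0.41. Tfpi, the tissue factor pathway inhibitor, which is made largely by endothelium, was dim. Its brighter probe set read 259.6, 343.1 and 257.9 in Sham-Sham, 274.1, 350.6 and 355.1 in Sham-CLP, and 316.9, 287.7 and 344.0 in Burn-CLP. All 3 groups overlapped. The dimmer had 2 Sham-Sham arrays at the floor, so its differences of 0.62 and 0.49 depend on the floor. It read 64.3, 64.3 and 147.3 in Sham-Sham, 116.5, 140.9 and 134.4 in Sham-CLP, and 131.3, 151.7 and 84.2 in Burn-CLP.

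In fibrinolysis the clearest separation was that of Serpinf2, alpha-2-antiplasmin, the main inhibitor of plasmin. It read 5659, 5380 and 5562 in Sham-Sham, 7069, 6950 and 7571 in Sham-CLP, and 5822, 6318 and 7308 in Burn-CLP. Both other groups lay above Sham-Sham on every array, by 0.38 ± 0.16 in Sham-CLP (interval 0.03 to 0.73, adjusted p = 0.4029) and 0.22 ± 0.16 in Burn-CLP (adjusted p = 0.4482). Plg, plasminogen, the precursor of plasmin, read 19809, 21509 and 22604 in Sham-Sham and 16960, 18525 and 18686 in Burn-CLP. Its Burn-CLP arrays all lay below Sham-Sham, by -0.24 ± 0.15 (adjusted p = 0.4105). Hrg, histidine-rich glycoprotein, which binds plasminogen and heparin, read 19319, 20918 and 22877 in Sham-Sham, 24136, 26343 and 19809 in Sham-CLP, and 20703, 16243 and 19979 in Burn-CLP. Hrg differed by 0.15 and -0.15, with overlap after normalization. With the deposited scaling all 4 fibrinolysis genes had Sham-CLP above Sham-Sham without overlap, none of them called. On that scale 18.9% of all probe sets and 71.4% of the hepatocyte markers did not overlap either. Cpb2, whose active form trims fibrin and slows its lysis, gave 0.08 and 0.03.

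Set side by side, the 4 classes differed little in their medians. Sham-CLP against Sham-Sham gave 0.14 for complement, -0.03 for clotting factors, 0.16 for anticoagulants and 0.11 for fibrinolysis, where all probe sets had a median of 0.00. The Burn-CLP medians against Sham-Sham were 0.05, 0.03, 0.15 and -0.06 in the same order, where all probe sets had 0.01. Burn-CLP against Sham-CLP gave -0.10, 0.06, -0.03 and -0.15, where all had 0.02. Each comparison with Sham-Sham, taken by itself, had 26 of the 40 members higher (65%) and 14 lower. Of all probe sets, 50.6% were higher in Sham-CLP and 50.9% in Burn-CLP. Both comparisons share the control arrays, and many of the signs rest on differences smaller than their SE. C3 gave -0.02 and 0.05 (SE 0.14), and 0.21 and -0.14 with the deposited scaling. Fgg gave -0.04 and 0.04 (SE 0.15), and 0.24 and 0.03 with that scaling. Against Sham-CLP, 11 members were higher (27.5%) and 29 lower in Burn-CLP, where 52.4% of all probe sets were higher. Of these 40 signs 11 changed with the deposited scaling.

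Groups that did not overlap were found for 7 members (17.5%) in Sham-CLP against Sham-Sham, where 16.7% of all probe sets had such groups. In Burn-CLP against Sham-Sham there were 8 (20%) against 21.5%, and in Burn-CLP against Sham-CLP 2 (5%) against 18.8%. The first 2 shares are near the background. The 2 members of the last comparison were the brighter Mbl2 and the brightest Masp1 probe sets, while the other probe sets of both genes overlapped.

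**Figure D4:**
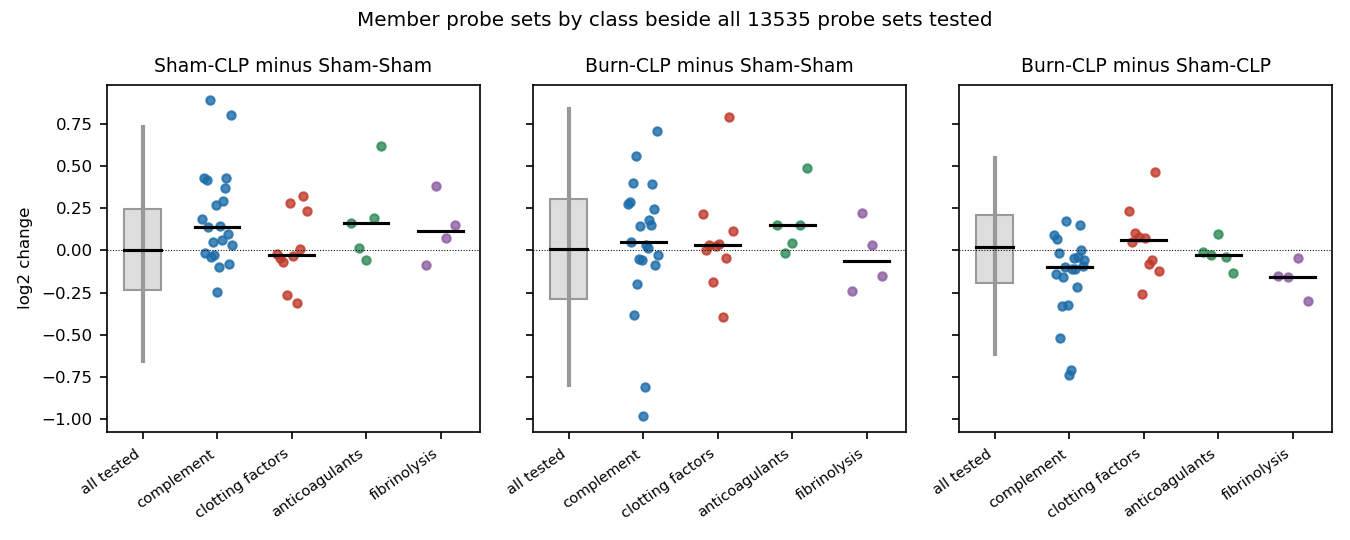
Log2 difference of each member probe set by class (points) with the class median (bar), beside the 25th to 75th percentile (box) and 5th to 95th percentile (line) of all 13535 probe sets, for the 3 comparisons. Nearly all members lie inside the 5th to 95th percentile span, and class medians stay between -0.15 and 0.16.

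The scale on which arrays are compared mattered for these genes, many of which are very bright. With the deposited scaling 35 of 40 members were higher in Sham-CLP than in Sham-Sham, with a median of 0.24, where 41.3% of all probe sets were higher and their median was -0.08. On that scale 22 members (55%) had groups that did not overlap, where 18.9% of all probe sets did. Burn-CLP against Sham-Sham gave 9 (22.5%) against 21.1% of all, with a member median of 0.07. Burn-CLP against Sham-CLP gave 12 (30%) against 23.1%, with a member median of -0.21 where all had 0.11. Clotting factors changed sign between the scales, to 0.22 in Sham-CLP against Sham-Sham and -0.09 in Burn-CLP against Sham-CLP. The 7 hepatocyte markers tested, such as Alb and Apoa1, shifted with the members between scales: their median in Sham-CLP was -0.01 after normalization and 0.24 with the deposited scaling, where all 7 were higher. Their share of groups that did not overlap on that scale exceeded that of the members. It was 5 of 7 (71.4%) in Sham-CLP and 4 (57.1%) in Burn-CLP against Sham-Sham. Burn-CLP against Sham-CLP gave them 5 (71.4%), with a median of -0.36. The deposited scaling called 0 members in the 3 comparisons, with smallest adjusted p-values of 0.2493, 0.05634 and 0.21. Which of the scales is nearer to the RNA content was not tested.

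Single arrays also stood low for many members at once. Sham-CLP 1 was the lowest of its group for 24 of 40 members (60%), where it was the lowest for 30.9% of all probe sets. Burn-CLP 1 was the lowest of its group for 16 (40%), against 28% of all, and gave the lowest C9 and C4bpa signals of the 9 arrays. Among markers of other cells, S100a9 of neutrophils was called higher in Burn-CLP than in Sham-Sham (adjusted p = 0.02389). It read 64.3, 64.3 and 89.2 in Sham-Sham, where 2 arrays lay at the floor, and 237.7, 787.9 and 661.9 in Burn-CLP. S100a8 (1.10) and Cxcr2 (0.07), the other neutrophil markers tested, were not called. Of 8 stellate cell and fibroblast markers 6 were lower and 2 higher in that comparison, with a median of -0.36, and the 1 called was Dcn, which rose by 1.48 ± 0.21 (adjusted p = 0.02389). Of the 7 hepatocyte markers 0 were called. The part of other cells in the Mbl2 difference was not tested.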

How the data were processed

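Each deposited value is a linear intensity of 1 probe set on 1 array. What software the authors used to make these intensities is stated neither in the labels nor in the file headers read here. Means of each array trimmed by 2% at each end lay between 500.14 and 500.17, so the deposited arrays had been scaled to a common level. The 57 control probe sets were left out. Array medians deviated by over 10% from their mean, so the arrays were quantile normalized. Signals under the 20th percentile (64.3) were set to it, log2 was taken of the deposited intensities so treated, and probe sets above the floor on at least 3 arrays were kept, 13535 in all. Gene symbols came from the platform annotation, updated through GRCr8 RefSeq, and probe sets with several symbols were not named.

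One limma fit (limma 3.58.1, R 4.3.3; lmFit, eBayes, moderated F test) of all 9 arrays gave the differences, with Benjamini-Hochberg adjustment over all probe sets tested. Arrays have no read depth. The steps were also run on simulated data, and how often they recover changes of the size described is not reported here. Members and gene lists were chosen with earlier results of these data known. All members are named. Values on every array are given for member probe sets called in any test and, in each of 8 roles, for the 2 with the smallest F-test p and the brightest. From the lists of other complement genes, other coagulation genes and regulators the 2 with the smallest F-test p are named. Array values of Mbl1, C1s, Cfi, Serping1, Plg, the dimmer Mbl2 and the brightest Fgb probe sets, and the markers of cell types named, go beyond this rule and were chosen after their values were seen. Alternatives were the deposited scaling, other floors and filters, only the 2 groups compared, the replicate number as a block, another eBayes setting and leaving out each array. The F test alternatives were chosen after seeing the data. Deviations of same-numbered arrays correlated between -0.03 and 0.08, and the labels name no shared animal or batch, so numbers were not taken as pairs.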

Additional observations from a re-analysis of the deposited data

How the results depend on the processing

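With 3 arrays a group, mainly large and tight differences can pass, signals at the floor bound a few members, and quantile normalization compresses the brightest. Among 1374 comparisons of 27 described probe sets with an alternative setting, 1310 kept direction and side of the threshold and 51 changed sign, none of them called. The other 13 were Mbl2 in Burn-CLP against Sham-Sham, which kept its direction and lost the call. The count of called members in that comparison was 0 with the deposited scaling, a floor at the 10th percentile, no floor, or only the 2 groups compared, and 0 to 1 when an array was left out. With trend and robust eBayes the F test called 1 member. With the replicate number as a block (replicate block) 0 members were called, the adjusted p of Mbl2 was 0.0744, and no other call of a member changed. All calls in Burn-CLP against Sham-Sham, 101 as reported, numbered 53 with the 10th percentile floor, 41 with no floor, 13 with only the 2 groups, 59 with the replicate block, 317 with trend and robust, and 19 to 645 when an array was left out, highest without Sham-Sham 3. Without that array Sham-CLP against Sham-Sham gave 347 calls in place of 8.

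With the deposited scaling the medians were 0.31 for complement, 0.22 for clotting factors and 0.33 for fibrinolysis in Sham-CLP against Sham-Sham, and -0.25, -0.091 and -0.33 in Burn-CLP against Sham-CLP. Over all 40 members signs changed for 9, 4 and 11 in Sham-CLP against Sham-Sham, Burn-CLP against Sham-Sham and Burn-CLP against Sham-CLP. Among the 27 described these were C3 (0.21), Fga (0.25), the brightest Fgb (0.20), Fgg (0.24) and Plg (0.16) in Sham-CLP against Sham-Sham, C3 (-0.14), Vtn (0.016) and F2 (0.039) in Burn-CLP against Sham-Sham, and C3 (-0.35), Serping1 (-0.011), the brightest Fgb (-0.14), Fgg (-0.22) and Tfpi (0.081 and 0.097) in Burn-CLP against Sham-CLP. Why these signs differ between the scales was not tested. Leaving out arrays gave medians, for complement, clotting factors, anticoagulants and fibrinolysis, of 0.022 to 0.21, -0.090 to 0.038, 0.051 to 0.23 and 0.089 to 0.14 in Sham-CLP against Sham-Sham, -0.0042 to 0.12, -0.0019 to 0.10, 0.077 to 0.22 and -0.12 to 0.013 in Burn-CLP against Sham-Sham, and -0.18 to -0.020, -0.028 to 0.13, -0.082 to 0.046 and -0.22 to -0.095 in Burn-CLP against Sham-CLP. Among the 27 it turned signs in Sham-CLP against Sham-Sham for C3 (-0.032 to 0.0081), Masp1 (-0.011 to 0.27), the dimmer Mbl2 (-0.35 to 0.13), C9 (-0.032 to 0.15), Fga (-0.12 to 0.043) and F2 (-0.059 to 0.064). In Burn-CLP against Sham-Sham it did so for Mbl1 (-0.26 to 0.075), C8b (-0.023 to 0.072), C9 (-0.10 to 0.22), Vtn (-0.064 to 0.022), Fgg (-0.030 to 0.089) and F2 (-0.15 to 0.027). In Burn-CLP against Sham-CLP it did so for C1s (-0.35 to 0.078), C9 (-0.17 to 0.16), C4bpb (-0.17 to 0.12), Klkb1 (-0.22 to 0.17), F2 (-0.16 to 0.017), Serpind1 (-0.11 to 0.10) and Tfpi (-0.16 to 0.026 and -0.31 to 0.12).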

Other observations

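Genes outside the list but tied to the same systems gave 0 calls in any comparison (limma, adjusted p under 0.05), where 0.0591%, 0.746% and 0.0148% of all probe sets were called in Sham-CLP against Sham-Sham, Burn-CLP against Sham-Sham and Burn-CLP against Sham-CLP. At an unadjusted p under 0.05, in the same order, there were 0, 3 and 1 of 13 other complement genes, 1, 1 and 1 of 17 other coagulation genes, and 2, 6 and 5 of 14 regulators of hepatic plasma protein genes, where 11.7%, 19.9% and 9.09% of all probe sets passed. Fcna, ficolin A, a lectin pathway sensor made by macrophages, read 977.4, 587.8 and 731.8 in Sham-Sham, 469.1, 472.2 and 644.7 in Sham-CLP, and 359.6, 413.2 and 503.5 in Burn-CLP. Burn-CLP lay below Sham-Sham on all arrays, by -0.83 ± 0.24 (adjusted p = 0.1214), and the difference from Sham-CLP was -0.31. C1qbp, a protein that binds C1q, read 1352, 2086 and 1761 in Sham-Sham, 2072, 1767 and 1687 in Sham-CLP, and 2737, 3347 and 2158 in Burn-CLP, the last above all others (0.66 ± 0.23 against Sham-Sham, adjusted p = 0.1635).

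Mcfd2, which helps carry factors V and VIII out of the endoplasmic reticulum, read 4402, 4203 and 4038 in Sham-Sham, 5562, 5233 and 5315 in Sham-CLP, and 5601, 5546 and 5464 in Burn-CLP. Both other groups lay above Sham-Sham on all arrays, by 0.35 ± 0.14 (adjusted p = 0.4018) and 0.39 ± 0.14 (adjusted p = 0.1836). Vwf, the carrier of factor VIII, made by endothelium and platelets, gave -0.26 ± 0.36 in Sham-CLP and 0.72 ± 0.36 in Burn-CLP (adjusted p = 0.7847 and 0.2989), with 1 Sham-CLP array at the floor.

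Among the regulators, Nr1h4, the bile acid receptor FXR, read 1201, 1106 and 1167 in Sham-Sham, 1408, 1223 and 1270 in Sham-CLP, and 531.0, 559.9 and 822.7 in Burn-CLP. The Burn-CLP arrays lay below the other 6, by -0.89 ± 0.20 against Sham-Sham (adjusted p = 0.0687) and -1.05 ± 0.20 against Sham-CLP (adjusted p = 0.1794). Foxa3, a liver transcription factor, read 489.8, 449.6 and 614.8 in Sham-Sham, 825.3, 864.6 and 1013 in Sham-CLP, and 767.6, 818.4 and 723.6 in Burn-CLP. Both other groups lay above Sham-Sham on all arrays, by 0.81 ± 0.18 in Sham-CLP (adjusted p = 0.242) and 0.58 ± 0.18 in Burn-CLP (adjusted p = 0.1389).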
